A study of Rattus norvegicus with 6 samples.

Results

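The proteasome subunit genes were taken as the listed genes whose symbol begins with Psma, Psmb, Psmc, Psmd, Psme, Psmf or Psmg and a number, leaving out the immunoproteasome subunits Psmb8, Psmb9 and Psmb10. The rule found 46 genes of the 14607 listed, and 44 of them encode a proteasome protein, an assembly chaperone or a regulator. The remaining members were Psmc3ip, which encodes the meiotic recombination protein HOP2, and Psme1-ps1, a pseudogene row of Psme1. Polyadenylated RNA was sequenced from mural cells, the contractile or supporting cells that wrap brain vessels, of male Sprague-Dawley rats aged 4 to 5 weeks. Vascular smooth muscle cells (VSMCs, n = 3) came from cortical arterioles and mid-capillary pericytes (mcPCs, n = 3) from the capillary bed of the same 3 isolations, each made from 10 pooled rats. No group carried a transgene or a treatment. VSMCs were retained on a filter as arterioles, digested again with stronger enzymes, cleared of CD31 and CD11b cells and picked with the lectin GSA. The mcPCs passed the filter and were obtained by removing cells that carried CD31, CD11b, GLAST or O4. Cell type and isolation route therefore cannot be told apart.

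The deposited values were means over the samples of a cell type, so no spread between isolations and no test between cell types could be given. The comparison used here is the log2 of the fold change (LFC), the log2 of mean normalized counts plus 1 in mcPCs minus the same in VSMCs, so that a negative LFC is a lower level in mcPCs. Most LFCs of single members are given with a 95% exact (Clopper-Pearson) interval that covers counting error only. Levels of different genes were compared in TPM, the share of transcripts that a gene holds in its library after division by gene length. An average of 62.0 M reads was assigned to genes in a VSMC sample and 48.0 M in an mcPC sample.

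Marker genes followed the cell type labels, and markers of other cell types were also detected. The 8 smooth muscle markers were all at least 2-fold lower in mcPCs. Of 8 pericyte markers 6 were at least 2-fold higher, with Kcnj8 at an LFC of 6.17 and Abcc9 at 6.52. The lowest LFC of that list was -0.19. It also holds Pdgfrb, Rgs5 and Cspg4, which mark mural cells in general and which the paper reports as similarly expressed in both cell types. The rats had been perfused to clear blood from the vessels, yet of 16 erythrocyte markers found, 15 were at least 2-fold higher in mcPCs, and that list took 54.4% of all TPM there against 0.726% in VSMCs. The 8 of 10 endothelial markers found summed to 193 TPM in the VSMC samples against 407 in mcPCs. The highest single marker held 145 and 375 TPM of these sums. By LFC the 8 ran from -0.78 to 6.28, and 6 of them were at least 2-fold higher in mcPCs. The 6 of 12 microglia and leukocyte markers found summed to 1.36 and 69.6 TPM. The 3 neuron and 4 astrocyte markers found summed to 0.659 and 0.582 TPM in VSMCs and to 19.01 and 15.7 TPM in mcPCs. The 4 oligodendrocyte markers found summed to 6.62 TPM in VSMCs and 5.196 TPM in mcPCs. By LFC, however, all 4 of these were higher in mcPCs, the lowest at 0.36, and 3 were at least 2-fold higher. Since the samples are bulk RNA, fewer cells of a type and less RNA per cell cannot be told apart.

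The proteasome is the main protease of the cytosol and nucleus and breaks down proteins tagged with ubiquitin. Its 20S core is a barrel of stacked rings of alpha and beta subunits with the active sites inside, and the 19S cap recognizes, unfolds and threads the substrate into it. Core and cap together form the 26S proteasome, and other caps, an inhibitor and dedicated assembly chaperones adjust its number and activity.

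The proteasome genes were close to the same level in both cell types once libraries were normalized. Their median LFC was -0.22, with quartiles of -0.44 and 0.079, against 0.014 for all listed genes. They ran from -1.19 for Psmd10 to 1.26 for Psmf1, and 30 lay below 0 and 16 above. Among the members, 1 was at least 2-fold higher in mcPCs (Psmf1) and 1 at least 2-fold lower (Psmd10), where 21.6% and 13.8% of all listed genes passed those limits. At a limit of 1.5-fold, 1 member was higher and 6 were lower (Psmd10, Psmd7, Psmd1, Psmb6, Psmd11 and Psmd2), where 30% and 23.3% of all listed genes passed. The members just within that limit were Psma6 at 0.58 and Psmc1 at -0.56.

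These genes are abundant, so genes of at least 10 TPM in VSMCs are the closer background, although a limit set in VSMCs favours genes that are higher there. Of 8028 such genes, 65.6% lay below 0 against 49.3% of all listed genes, with a median LFC of -0.26. Among the 45 members at that level 30 (66.7%) lay below 0, so the members' slightly negative median was near that of abundant genes in general. The share far from 0 was smaller among the members. Of the abundant genes 24.8% were at least 2-fold apart and 44.1% at least 1.5-fold apart, and of the 45 members 2 (4.44%) and 7 (15.6%) were. The SD of the LFC over genes was 0.44 for the 46 members, 1.34 for the abundant genes and 1.80 for all.

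**Figure D1:**
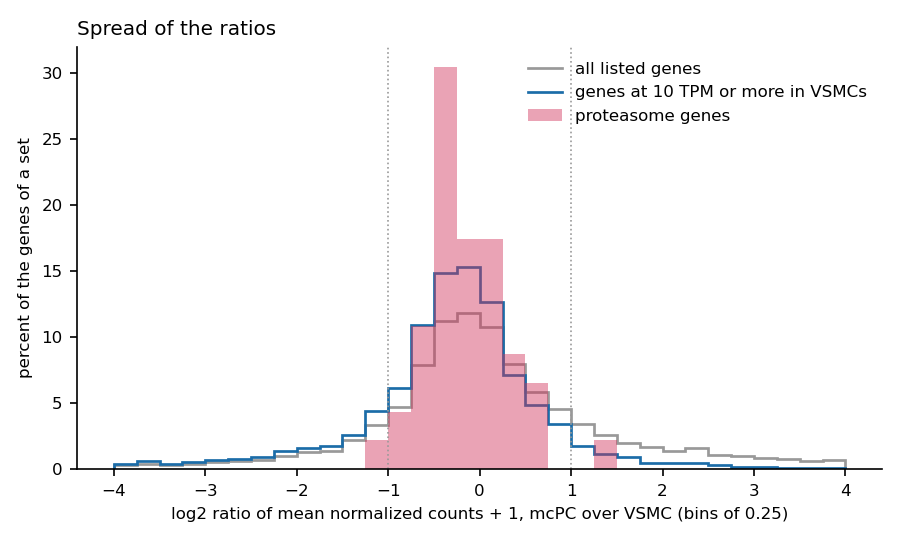
Percent of genes (y axis) per bin of 0.25 in the LFC between mcPCs and VSMCs (x axis) for the 46 proteasome genes, all 14607 listed genes and the 8028 genes at 10 TPM or more in VSMCs, with 2-fold limits dotted. The proteasome genes sit between -1.19 and 1.26, while the other sets have tails on both sides that run beyond the axis.

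The levels of the subunits kept much the same order in both cell types. The median member stood at the 87.8th percentile of all listed genes by TPM in VSMCs and at the 88.5th in mcPCs. The genes with most TPM in VSMCs were Psma7 at 224, Psmb4 at 203 and Psmb7 at 168. In mcPCs they were Psme1 at 59.3, Psmb4 at 58.4 and Psma7 at 52.4. Psma8, the testis form of Psma7, was lowest in both, at 0.667 and 0.252 TPM. Of the 46 members, 33 moved by 5 ranks or fewer within the list. The largest moves were Psma6, from rank 21 in VSMCs to rank 5 in mcPCs, and Psmd7, from rank 10 to rank 25. Pearson's r of log2 TPM between the cell types was 0.954 and Spearman's rho 0.904 over the 46 genes, which share gene length and annotation in both. Over the 14 genes of the 20S core without Psma8 they were 0.906 and 0.842.

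In TPM as deposited, the members summed to 4032 in VSMCs (0.404% of all TPM) and to 1044 in mcPCs (0.105%). The erythrocyte genes occupy the same total, and without them the shares were 0.407% and 0.229%. All 46 members had less TPM in mcPCs than in VSMCs, and the median gene of the whole table was 3.47-fold lower as well. For this reason the LFC on normalized counts, not the TPM ratio, is used between cell types.

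**Figure D2:**
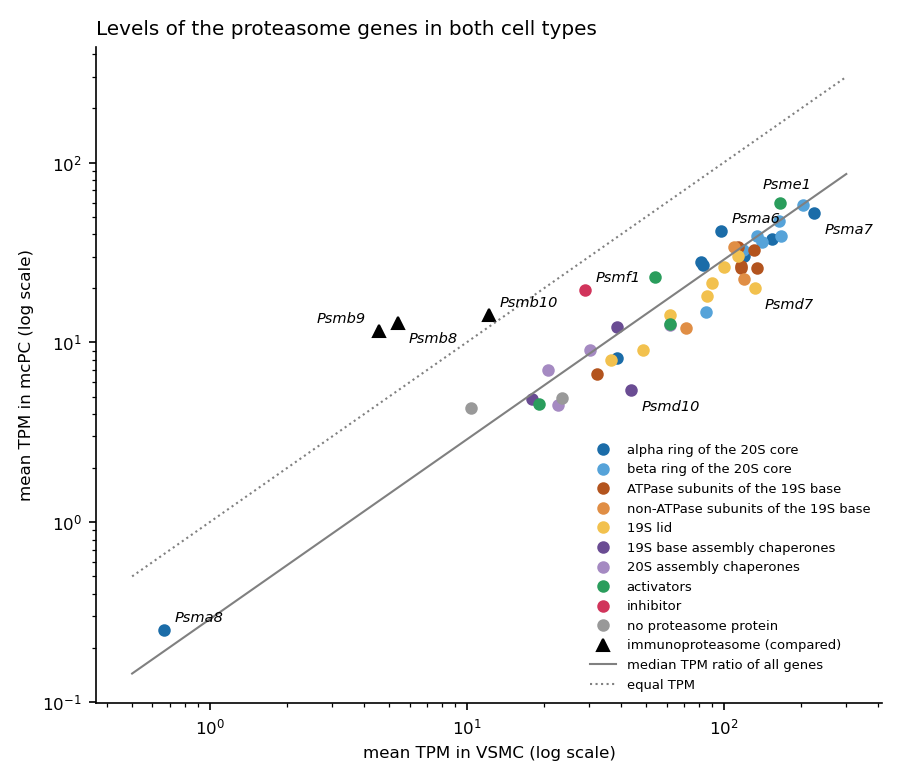
Mean TPM of each proteasome gene in VSMCs (x axis, log scale) and in mcPCs (y axis, log scale), coloured by role, with the immunoproteasome subunits as triangles. Most points lie along the solid line, the median ratio of all genes, with Psmf1 above it and Psmd10 below it, while Psmb8, Psmb9 and Psmb10 lie above the dotted line of equal TPM.

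The subunits of the 20S core were nearly level. The 14 somatic core genes had a median LFC of -0.085, with 8 below 0 and 6 above, and 13 of them were within 1.5-fold. Their TPM ran from 38.6 (Psma3) to 224 (Psma7) in VSMCs and from 8.22 (Psma3) to 58.4 (Psmb4) in mcPCs. The coefficient of variation over these 14 genes, whose products enter the core in equal number, was 39.3% in VSMCs and 38.3% in mcPCs.

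Alpha subunits form the outer rings and gate the entry to the barrel. Without Psma8, their 7 genes had a median LFC of -0.16, with 3 above 0 and 4 below. With Psma8 the median was 0.0065. Psma3 was the lowest, with 3308 normalized counts in VSMCs and 2450 in mcPCs (LFC -0.43, interval -0.48 to -0.39). Psma6 was the highest, with 2138 and 3203 (LFC 0.58, interval 0.54 to 0.63). Relative to the median core subunit of the same cells, Psma6 stood at 77.0% of its TPM in VSMCs and 113% in mcPCs. Psma5 (LFC 0.27) and Psma4 (0.18) also lay above 0, and Psma7 (-0.29), Psma2 (-0.23) and Psma1 (-0.16) below. Psma8 rested on 147 reads in VSMCs and 104 in mcPCs, and its interval of -0.030 to 0.72 included 0.

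Beta subunits form the inner rings and carry the active sites. Their 7 genes had a median LFC of -0.041, from -0.74 for Psmb6 to 0.035 for Psmb1. The structural subunits Psmb1, Psmb2, Psmb3 and Psmb4 all lay between -0.041 and 0.035, each with a counting interval that included 0. Of the 3 catalytic subunits, 1 was at least 1.5-fold lower in mcPCs (Psmb6). Psmb5, the chymotrypsin-like site, had 2706 and 2475 normalized counts (LFC -0.13, interval -0.18 to -0.082). Psmb7, the trypsin-like site, had 3659 and 3020 (LFC -0.28, interval -0.32 to -0.24). Psmb6, the caspase-like site, had 1256 and 749 (LFC -0.74, interval -0.83 to -0.67). Of the core subunits, Psmb6 was the only one past 1.5-fold.

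The immunoproteasome subunits, which replace these catalytic subunits in cells exposed to interferon, were set beside them for comparison. Psmb8 takes the place of Psmb5, Psmb9 that of Psmb6 and Psmb10 that of Psmb7. All 3 were higher in mcPCs. Psmb9 had 90.2 normalized counts in VSMCs and 778 in mcPCs (LFC 3.10, interval 2.95 to 3.27). Psmb10 had 279 and 1128 (LFC 2.01, interval 1.92 to 2.12). Psmb8 had 87.9 and 478 (LFC 2.43, interval 2.21 to 2.68). Its effective length differed between the cell types, 524 bases in VSMCs and 802 in mcPCs, and its LFC moved to 3.04 on median-centred TPM and to 4.65 on counts scaled without the erythrocyte genes. Lengths were equal in both cell types for 40 of the 46 proteasome genes, and differed by at most 1.07-fold for the other 6.

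Within a cell type the ratio of inducible to standard subunits needs no scaling between libraries. Per 100 TPM of Psmb5, Psmb6 and Psmb7 together, VSMCs had 5.64 TPM of the 3 immunoproteasome subunits and mcPCs 43.0. Per 100 TPM of its standard partner, Psmb8 had 3.86 in VSMCs and 35.7 in mcPCs, Psmb9 had 5.35 and 77.8, and Psmb10 had 7.28 and 36.5. Psmb8 rested on 166 reads in VSMCs and 2192 in mcPCs. Its TPM also depends on the effective length, which differed between the cell types, so its ratios are less certain. Immune cells are rich in these subunits. The leukocyte marker Ptprc, the pan-leukocyte antigen CD45, stood at 0.066 TPM in VSMCs against 15.1 in mcPCs, and the part of such cells in these values was not tested.

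Genes of the 19S cap lay lower than those of the core, with a median LFC of -0.36 over 17 genes and 15 of them below 0. Of the genes at 10 TPM or more in VSMCs, 65.6% lay below 0, with a median LFC of -0.26. Within each cell type, the 17 cap genes summed to 89.1 TPM per 100 TPM of the 14 core genes in VSMCs and to 74.5 in mcPCs. No spread between isolations stands beside either value.

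The 6 ATPase genes of the base, whose ring unfolds and threads the substrate, had a median LFC of -0.34. Psmc1 was the lowest, with 5506 and 3731 normalized counts (LFC -0.56, interval -0.60 to -0.52). Psmc4 was the only one of them above 0, with 3990 and 4176 (LFC 0.066, interval 0.029 to 0.10). The others lay at -0.45 (Psmc6), -0.36 (Psmc2), -0.32 (Psmc5) and -0.20 (Psmc3).

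The non-ATPase base subunits split. Psmd1 and Psmd2, the large scaffold proteins on which ubiquitin receptors and shuttles dock, were lower in mcPCs. Psmd1 had 5913 and 3502 normalized counts (LFC -0.76, interval -0.79 to -0.72), and Psmd2 had 9536 and 6267 (LFC -0.61, interval -0.63 to -0.58). Psmd4, itself a ubiquitin receptor, had 3805 and 4172 (LFC 0.13, interval 0.096 to 0.17).

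The lid holds the deubiquitinase that strips ubiquitin from the substrate before it enters. All 8 lid genes lay below 0, with a median LFC of -0.35, where 65.6% of the genes at 10 TPM or more in VSMCs lay below 0. Psmd7, the partner of the deubiquitinase, was the lowest of the cap genes, with 5270 normalized counts in VSMCs and 2813 in mcPCs (LFC -0.91, interval -0.95 to -0.87). The deubiquitinase itself, Psmd14, had 1456 and 1104 (LFC -0.40, interval -0.47 to -0.33). Psmd11, which clamps the lid to the core, had 3190 and 2094 (LFC -0.61, interval -0.66 to -0.56). Psmd8 was the highest of the lid, with 4302 and 4069 (LFC -0.080, interval -0.12 to -0.044). Psmd6, Psmd12, Psmd3 and Psmd13 lay in order between these, at -0.44, -0.31, -0.25 and -0.12.

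**Figure D3:**
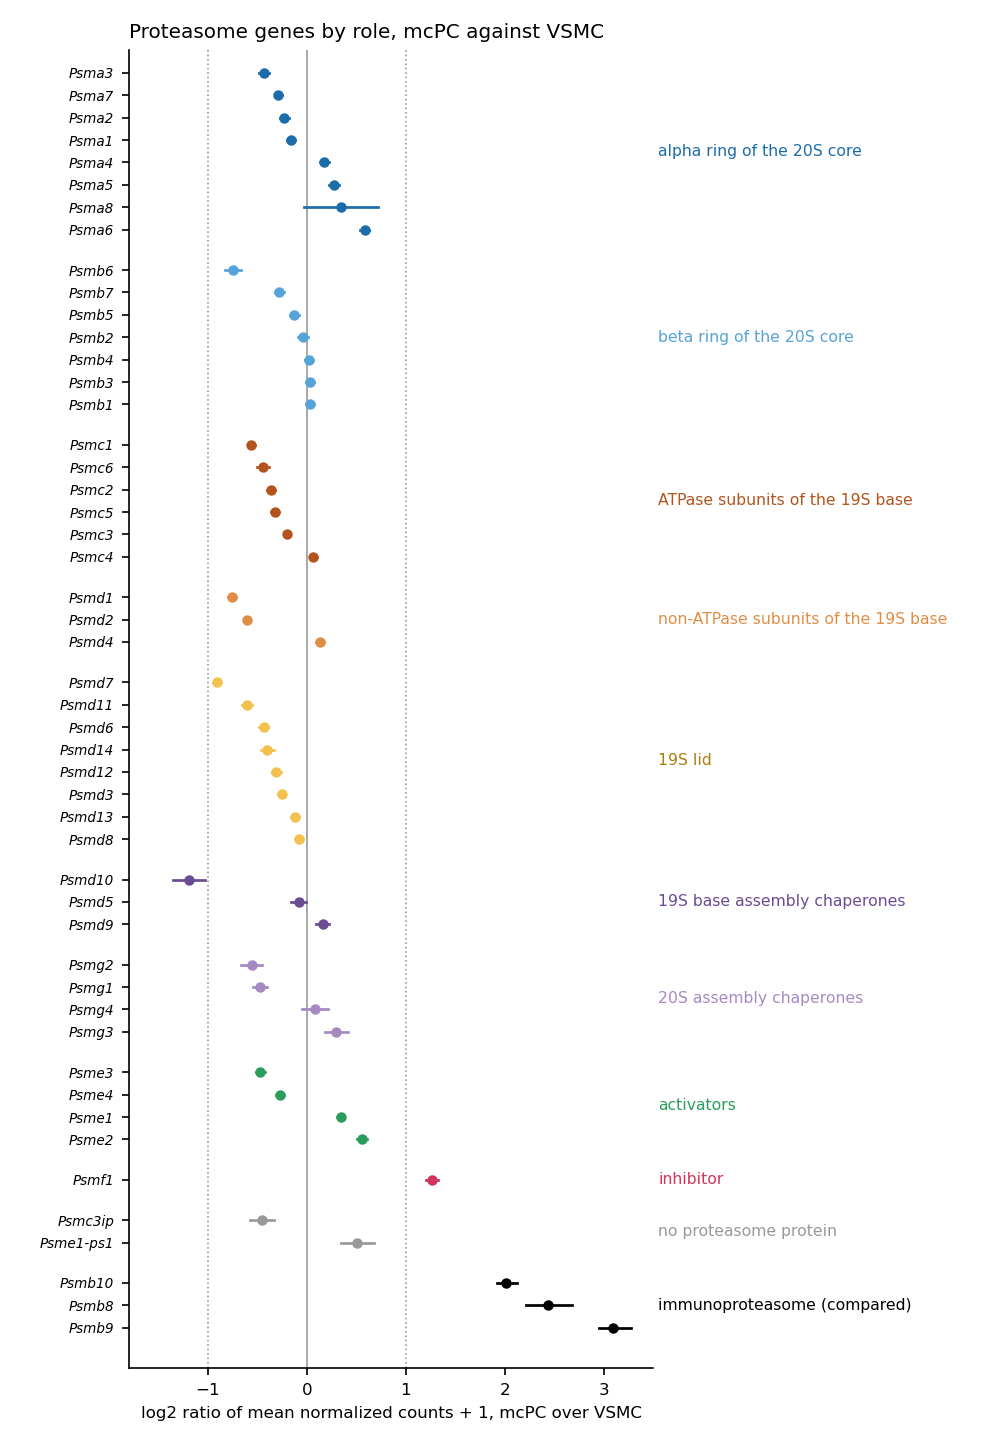
LFC between mcPCs and VSMCs (x axis) of each proteasome gene (y axis, grouped by role), with the immunoproteasome subunits for comparison; bars are counting-error intervals and dotted lines mark 2-fold. All 8 lid genes lie left of 0, as do 65.6% of the genes at 10 TPM or more in VSMCs. Psmd10 and Psmf1 lie outside the dotted lines on opposite sides, and the 3 immunoproteasome subunits lie at 2.01 or more.

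The chaperones that assemble the base differed among themselves. Psmd10, also called gankyrin, which holds Psmc4 during assembly and is studied as an oncoprotein, had 403 normalized counts in VSMCs and 176 in mcPCs. That is 2.28-fold lower in mcPCs (LFC -1.19, interval -1.36 to -1.03), the lowest LFC of all members. It rested on 1714 reads in VSMCs and 388 in mcPCs. In TPM it stood at 34.3% of the median core subunit in VSMCs and at 14.8% in mcPCs. The other base chaperones were close to level, Psmd5 at an LFC of -0.083 (interval -0.16 to -0.0087) and Psmd9 at 0.16 (interval 0.096 to 0.22).

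The chaperones of the core work in pairs that guide ring formation, and the pairs lay on opposite sides of 0. Psmg1 and Psmg2, which act together, lay at -0.48 (interval -0.55 to -0.41) and -0.56 (interval -0.66 to -0.45). Psmg3 and Psmg4, which form the other pair, lay at 0.30 (interval 0.18 to 0.42) and 0.083 (interval -0.048 to 0.21). All 4 were within 1.5-fold.

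Alternative caps open the core without ubiquitin. Psme1 and Psme2, which together form the interferon-inducible cap PA28 alpha-beta, were the members of this group above 0. Psme1 had 3790 and 4796 normalized counts (LFC 0.34, interval 0.30 to 0.38), and Psme2 had 1776 and 2617 (LFC 0.56, interval 0.51 to 0.61). Psme3, the nuclear cap PA28 gamma, had 3729 and 2694 (LFC -0.47, interval -0.51 to -0.43). Psme4, the nuclear cap PA200, had 3675 and 3044 (LFC -0.27, interval -0.31 to -0.23). Per unit of Psme3 TPM there were 2.68 of Psme1 and 0.880 of Psme2 in VSMCs, and 4.71 and 1.83 in mcPCs. The ratio of Psme1 to Psme2 was 3.04 in VSMCs and 2.57 in mcPCs.

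Psmf1 had the highest LFC of all members. It encodes PI31, a protein that inhibits the isolated core and also acts as an adaptor for proteasome transport. It had 985 normalized counts in VSMCs and 2359 in mcPCs, a 2.39-fold difference (LFC 1.26, interval 1.201 to 1.32), from 4161 and 5126 reads. Its percentile among all listed genes by TPM was 68.7 in VSMCs and 87.02 in mcPCs. Relative to the median core subunit it stood at 22.7% of TPM in VSMCs and 52.9% in mcPCs. In TPM as deposited it had 28.9 in VSMCs and 19.5 in mcPCs, so that its direction turned on that scale (LFC -0.57), on which the median of all genes was -1.79. The erythrocyte list, at 7248 TPM in VSMCs and 542381 TPM in mcPCs, lay in the same direction as the LFC of Psmf1, and its part in that value was not tested. On counts scaled without that list, the LFC of Psmf1 was 1.23. That scaling changes only the total and takes no reads from Psmf1, so it does not test that part.

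The sequences upstream of the members that lay furthest apart, Psmf1 and Psmd10, are shown because they frame the range of the family. They are the 250 bases before the RefSeq start on GRCr8, on the gene's strand, at chr3:160720916-160721165 (minus strand) for Psmf1 and chrX:109453606-109453855 (minus strand) for Psmd10. Capitals mark the letters CCAAT or their reverse complement.
Psmf1: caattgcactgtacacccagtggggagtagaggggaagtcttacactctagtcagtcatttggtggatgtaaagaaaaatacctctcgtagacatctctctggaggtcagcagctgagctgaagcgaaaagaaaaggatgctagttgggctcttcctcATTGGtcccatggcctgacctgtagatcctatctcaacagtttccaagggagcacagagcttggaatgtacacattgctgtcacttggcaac
Psmd10: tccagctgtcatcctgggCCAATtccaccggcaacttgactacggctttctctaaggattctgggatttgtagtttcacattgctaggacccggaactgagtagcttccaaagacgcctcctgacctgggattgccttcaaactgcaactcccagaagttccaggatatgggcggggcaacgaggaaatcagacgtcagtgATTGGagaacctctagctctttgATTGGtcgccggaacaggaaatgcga
The CCAAT letters were found once upstream of Psmf1 and 3 times upstream of Psmd10, and GC content was 48% and 51.6%. No match to TGACNNNGC was found in either.

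Proteasome subunits are made in concert under the factor Nfe2l1, which is itself degraded by the proteasome and, when freed, binds antioxidant response elements (AREs) with a small Maf partner. The core letters of that element, TGACNNNGC, were searched on both strands from 250 bases before to 50 after each RefSeq start. Promoters were given for 41 of the 46 members, all but Psma7, Psmd6, Psmd12, Psmd14 and Psme1-ps1. The letters occurred in 8 of the 41 (19.5%) and in 12.1% of 33469 promoters, and CCAAT in 20 (48.8%) and in 37.5%. Median GC content was 57% among the members and 51.7% overall. A match is a run of letters and no measure of binding. Psmd1 and Psmd9 held 2 matches each and the others 1. A window around a match is shown for each of the 8, on the strand that reads TGACNNNGC, with the match in capitals.
Psma3, chr6:95219727-95219755 (minus): ctcatggtgcTGACCCGGCaggccacaga
Psmb2, chr5:144254980-144255008 (plus): cccgcgccaaTGACCGGGCggtcgcatat
Psmb5, chr15:32047421-32047449 (minus): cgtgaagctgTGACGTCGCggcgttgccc
Psmb6, chr10:55737854-55737882 (plus): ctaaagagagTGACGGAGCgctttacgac
Psmd1, chr9:94157796-94157824 (plus): accagatctaTGACCTCGCgagaattata
Psmd3, chr10:84139941-84139969 (minus): ggccgcacgaTGACCGAGCagctgcaaac
Psmd9, chr12:39018323-39018351 (minus): gagtttccggTGACCTCGCcccacctcca
Psme4, chr14:108706578-108706606 (minus): ggcgaggaggTGACCCAGCggctttctcc
The 8 members with the letters had a median LFC of -0.26, from -0.76 (Psmd1) to 0.16 (Psmd9), and the 33 without them -0.12, from -1.19 to 1.26. The ranges overlapped along the whole length of the first.

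All 10 genes of the list on transcriptional control of the proteasome lay below 0, with a median LFC of -0.70, and 4 of them were at least 2-fold lower in mcPCs. Of the genes at 10 TPM or more in VSMCs, 65.6% lay below 0 and 18.5% were at least 2-fold lower. The small Maf genes Maff and Mafk were the lowest. Mafk had 34958 normalized counts in VSMCs and 4303 in mcPCs (LFC -3.02, interval -3.05 to -2.99), and Maff had 5205 and 607 (LFC -3.10, interval -3.18 to -3.02). Nfe2l1 had 12435 and 3413 (LFC -1.87, interval -1.90 to -1.83), and Stat3, a cytokine-responsive factor, had 14184 and 6040 (LFC -1.23, interval -1.26 to -1.20). Ddi2 and Ngly1, the protease and the deglycosylase that activate the Nfe2l1 protein, were nearer 0, at -0.11 and -0.25. Most of the subunits lay nearer 0 than these 4 genes.

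Transcripts of the acute stress response differed far more than the subunits and are given beside these values. Of 18 immediate-early genes 17 were listed, and 16 lay below 0, with a median LFC of -3.60. Fos stood at 4441 TPM in VSMCs and 45.2 TPM in mcPCs (LFC -4.86). All 8 heat shock genes lay below 0, with a median of -1.50, from -4.51 for Hspb1 to -0.22 for Hsp90aa1. Of all listed genes 49.3% lay below 0, and of those at 10 TPM or more in VSMCs 65.6%. Maff and Mafk are themselves known to respond to acute stress, and the part of the isolation route in their LFC was not tested.

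Other subunits and partners of the proteasome lay in the range of the members. Of 9 such genes 8 (88.9%) lay below 0, against 65.6% of the genes at 10 TPM or more in VSMCs. Their median LFC was -0.33, and none was 2-fold apart. They ran from -0.81 for Uchl5, a deubiquitinase of the cap, to 0.12 for Akirin2, which carries proteasomes into the nucleus. Pomp, the chaperone that matures the core, lay at -0.32, the lid subunit Sem1 (listed as Shfm1) at -0.33 and the ubiquitin receptor Adrm1 at -0.12.

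Genes that deliver substrates were more spread. Of the 12 genes for shuttles and the segregase reported here, 11 (91.7%) lay below 0, against 65.6% of the genes at 10 TPM or more in VSMCs. Midn, midnolin, which carries proteins to the proteasome without ubiquitin, had 25947 and 4174 normalized counts (LFC -2.64, interval -2.67 to -2.61). Zfand5, an activator of the 26S proteasome, had 5365 and 2367 (LFC -1.18, interval -1.23 to -1.14). Rad23b, a ubiquitin shuttle, lay at -0.62, and Vcp, the segregase that pulls ubiquitinated proteins out of complexes, lay at -0.25.

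Genes that supply and activate ubiquitin lay on both sides of 0. Rps27a, which encodes ubiquitin fused to a ribosomal protein, lay at 0.20. Uba1, the main ubiquitin-activating enzyme, lay at -0.35 and Uba6, the other such enzyme, at 0.82. Over the 34 related genes reported here, 30 (88.2%) lay below 0 and 6 (17.6%) were at least 2-fold lower in mcPCs. Of the genes at 10 TPM or more in VSMCs 65.6% lay below 0 and 18.5% were at least 2-fold lower. The count of related genes past the 2-fold limit was thus near the general share. Paaf1 and Ubb were not among the listed genes and were not analysed here.

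The interferon side of the system was set beside Psme1, Psme2 and the immunoproteasome. Of 12 genes of interferon signalling and antigen processing, 11 lay above 0, with a median LFC of 1.13, where 7399 of all 14607 listed genes did. All 6 microglia and leukocyte markers found were also at least 2-fold higher in mcPCs, with Ptprc at 9.50 and Laptm5 at 10.9, and their part in the LFC of these genes and of Psme1 and Psme2 was not tested. The peptide transporters Tap1 and Tap2, which receive proteasome products, lay at 1.64 and 1.57, and B2m, the light chain of MHC class I, at 1.17. The transactivator Nlrc5 lay at 4.05 but reached no more than 0.586 TPM in mcPCs. Irf1, an interferon-induced factor that is also an acute response gene, was the exception at -2.23, with 151 TPM in VSMCs and 9.45 in mcPCs.

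**Figure D4:**
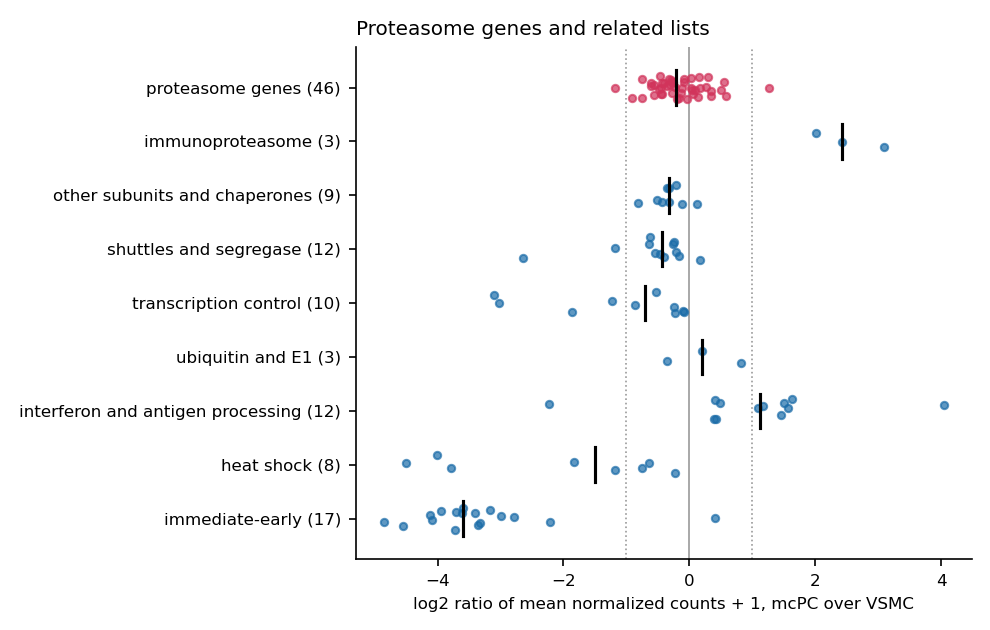
LFC between mcPCs and VSMCs (x axis) of the genes of each list (y axis, with the number of genes), with list medians as vertical bars and 2-fold limits dotted; points are spread vertically for legibility. The proteasome genes cluster near 0, the immunoproteasome and interferon genes have medians of 2.43 and 1.13, and the immediate-early genes have a median of -3.60.

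The position of the members relative to 0 depended on the scaling. On TPM as deposited their median LFC was -2.03 and all 46 lay below 0, with a median of -1.79 for all genes. On counts scaled to the same total it was -0.78, with 1 member above 0, and the median of all genes was -0.55. On TPM centred on the median gene it was -0.24 with 15 above 0, and on counts scaled without the erythrocyte genes -0.23 with 14 above 0. A scaling shifts all genes nearly alike, so the members' distance from the median of all genes, -0.23 or -0.24 on these 5 scales, and the place of Psmf1 as highest and Psmd10 as lowest follow from how the scales are built.

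**Figure D5:**
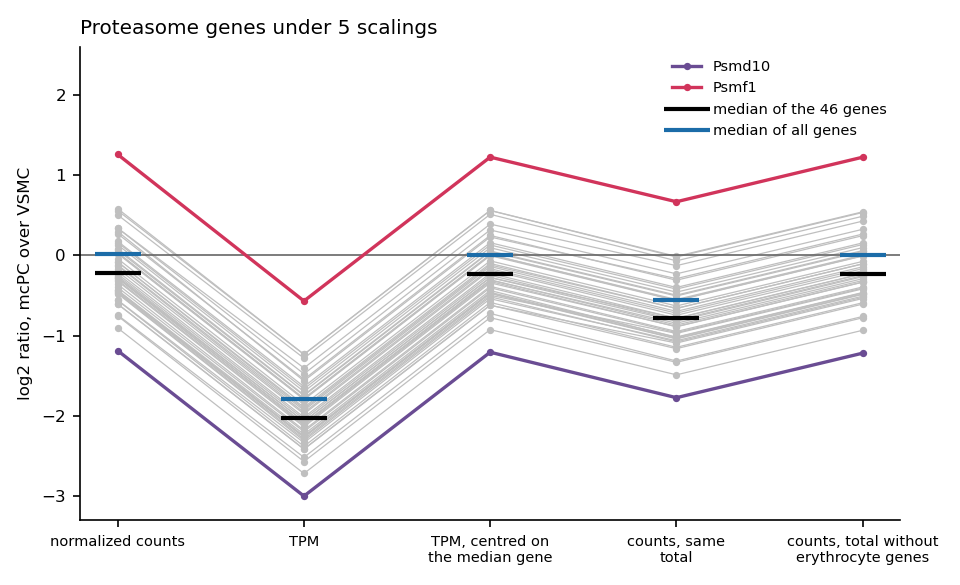
LFC between mcPCs and VSMCs (y axis) of the 46 proteasome genes under 5 scalings of the same table (x axis), each line a gene, with Psmf1 and Psmd10 in colour and the medians of the members and of all genes as bars. The whole set shifts with the median of all genes and its order is nearly preserved, with Psmf1 on top and Psmd10 at the bottom throughout.

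Several members share sequence with copies elsewhere in the genome, which can split reads between rows. By symbol, 19 members have 52 such copies in RefSeq, and Psme1-ps1 was the only one of those copies with a row matched by identifier. It stood at 10.4 TPM in VSMCs and 4.29 TPM in mcPCs (LFC 0.51), and adding it to Psme1 moved the LFC of Psme1 from 0.34 to 0.35. A row named LOC100361067, which resembles Psma3, stood at 13.2 and 2.13 TPM (LFC -0.84), and adding it moved Psma3 from -0.43 to -0.45. Psmc3ip, the member unrelated to the proteasome, had an LFC of -0.46 (interval -0.58 to -0.34).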

How the data were processed

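Brain mural cells were freshly isolated and their polyadenylated RNA was sequenced from strand-specific libraries, 3 per cell type, each run 4 times. RNA integrity numbers ranged from 6.40 to 8.50. After filtering with Eoulsan, the authors quantified Ensembl transcripts (Rnor_6.0) with Salmon 0.8.0, collapsed them to genes with tximport and used DESeq2 for normalization. A gene had to have a read in every sample to be listed. The deposited table holds, per cell type, the authors' mean TPM, mean estimated counts, a mean normalized signal (normalized counts) and mean effective lengths. It also holds fold changes, their errors and p-values from the authors' own comparison, which were not used. As these are means, no replicate error or test could be computed.

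The LFC was the difference of log2 (normalized counts + 1). Limits of 2-fold and 1.5-fold stood in for a test. Exact 95% intervals (scipy 1.17.1) used mean counts times 3 samples and 4 runs. They cover counting error only and had a median half-width of 0.045. That the mean counts are per run is not stated with them and was inferred. Times 3 samples and 4 runs, 69.8% of the VSMC values and 71.5% of the mcPC values were whole numbers within 0.01. The intervals and the read numbers given here rest on that inference. The code was tested on simulated data. The genes named were the catalytic, activator, inhibitor, chaperone and immunoproteasome genes, the highest and lowest of each role, and all genes 2-fold apart. Other genes of the family, and genes of the related, stress and interferon lists, were added with their values. Members and lists were chosen with earlier results of these data known, and the stress and interferon lists were added after the values of the related genes were seen. Promoters came from RefSeq (GRCr8) by symbol. Apart from the promoter windows on GRCr8, gene positions are not given, as no annotation of Rnor_6.0 was used here. Some genes of the lists on shuttles and on ubiquitin are not reported here and were left out of the counts, so those counts, and the count over all related genes, are not of the whole lists. A planned comparison of protein sequences was not run.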

Additional observations from a re-analysis of the deposited data

How the results depend on the processing

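The median LFC of the 46 proteasome genes moved from -0.22 to -2.03 on TPM as deposited and to -0.78 on counts scaled to the same total, where 45 and 13 members were at least 2-fold apart in place of 2. At 1.5-fold in place of 2-fold, 7 members were apart. Psmf1 turned from 1.26 to -0.57 on TPM as deposited. On both of those scales the median of all genes moved as well, to -1.79 and -0.55. Centred TPM, counts scaled without the erythrocyte genes, pseudocounts of 0 and 10, filters at 0.8 and 10 TPM and leaving out Psmc3ip gave medians between -0.24 and -0.20 and 2 members at least 2-fold apart. Under the first of these 1 member crossed 0 and under the second 2. Without Psmc3ip, Psme1-ps1 and Psma8, an alternative chosen after seeing the data, the median was -0.23. None of these genes is 2-fold apart, so leaving them out could not change the count. The same holds for leaving out Psmc3ip alone and for the filters, which removed only Psma8. Without the erythrocyte genes, the members' share of TPM in mcPCs was 0.229% in place of 0.105%. With the cap genes added, the coefficient of variation of the core genes moved from 39.3% to 40.7% in VSMCs and from 38.3% to 46.9% in mcPCs. No paired analysis was possible because the table holds means of each cell type and no value per isolation, and for the same reason no replicate could be left out. Depth limited Psma8 most, with an interval of 0.37 to either side, and the next widest was 0.17.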
